A study of Mus musculus with 6 samples.

Results

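Otog (MGP_C57BL6NJ_G0032745) and Otoa (MGP_C57BL6NJ_G0033435) encode otogelin and otoancorin, proteins of the acellular gels that cover the sensory epithelia of the inner ear. They are the 2 genes with the symbols Otog and Otoa among the 1090 named genes that the study listed as up-regulated, in a table of 41096 genes. RNA came from the left cochlea of female mice, 4 weeks old, whose strain is C57BL/6 in the paper and is written C56Bl/6 in the labels. The sound trauma group (specimens 6, 8 and 10) was exposed to 16 kHz sound for 4 h and received 1 µl of artificial perilymph 48 h later. This injection is given in the methods of the paper, while the labels describe exposure alone. The MSC treated group (specimens 13, 18 and 20) had the same exposure and an injection of human Wharton's jelly mesenchymal stromal cells into the posterior semicircular canal. RNA was taken 2 days after treatment in the labels and 48 h after cell delivery in the abstract of the paper. The methods of the paper give 72 h after delivery and 5 animals per group, against the 3 libraries per group analysed here. Both genes were thus chosen by the difference between the groups in the same libraries, as the study's list was. Both groups were exposed to sound, and no unexposed cochlea was analysed here.

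Otogelin is a secreted glycoprotein of the tectorial membrane, the otoconial membranes and the cupulae, and is made by nonsensory cells beside the hair cells. Otoancorin is anchored to the apical surface of nonsensory cells where these gels are attached, including the spiral limbus under the inner edge of the tectorial membrane. Recessive mutations of either gene cause hearing loss in humans. Both genes therefore serve as transcripts of inner ear epithelium in RNA from a whole cochlea.

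In the mouse reference GRCm38 both genes are on chromosome 7 and on the plus strand. Otog spans chr7:46240987-46311434, and its transcript Otog-201 has 56 exons and 10043 bases. Otoa spans chr7:121081650-121163097, and its transcript Otoa-201 has 29 exons and 3773 bases. In that annotation 0 other genes overlap either of them. The libraries were aligned to the C57BL/6NJ genome, so these positions describe the reference and not the files. The sequence before each RefSeq start is shown as a description, and any link of it to the levels of the genes was not tested. In capitals are matches, on either strand, to 5 motifs that were searched. These were the CCAAT box, the motif ACAAAG of SOX factors, the TATAAA box, the GC box GGGCGG and the E-box with the letters CACGTG. The first sequence is the 250 bases before the start of Otog (chr7:46240737-46240986, plus strand, RefSeq, GRCm38.p6). The second is the first 75 of the 250 bases before the RefSeq start of Otoa (chr7:121083174-121083248, plus strand, same source), cut where the first annotated coding transcript begins.
Otog: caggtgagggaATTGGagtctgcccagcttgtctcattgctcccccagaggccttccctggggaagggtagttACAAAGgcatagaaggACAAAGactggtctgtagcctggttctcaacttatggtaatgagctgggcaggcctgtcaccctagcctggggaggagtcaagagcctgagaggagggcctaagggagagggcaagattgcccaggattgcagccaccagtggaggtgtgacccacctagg
Otoa: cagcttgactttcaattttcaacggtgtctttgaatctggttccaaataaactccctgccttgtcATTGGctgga

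Over the full 250 bases, each gene held 1 match to CCAAT, read as ATTGG on the plus strand, a motif present in 33.8% of 32851 windows of the same length before RefSeq starts. The match lay 239 bases before the RefSeq start of Otog and 185 bases before that of Otoa. The Otoa window lies inside the annotated span of the gene, which begins at chr7:121081650. The last 175 bases of that window follow the start of the first annotated coding transcript. Otog also held 2 matches to ACAAAG (16.5% of windows hold it), 177 and 161 bases before its start, and Otoa held 0. The TATAAA box, the GC box and the E-box, held by 12.4%, 32.7% and 6.02% of windows, had 0 matches in both. The shared motif is thus a common one, and a match is a description of letters only.

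Levels are given as scaled counts, which are read counts that the authors multiplied by 1 factor per library. Values stand in the order of specimens 6, 8 and 10 after sound trauma and of 13, 18 and 20 with MSC treatment. The 6 libraries held between 9170390 and 11030863 reads on genes. Otog was represented by 965, 1345 and 3282 reads after sound trauma and by 1830, 2327 and 2152 reads with MSC treatment. Otoa had 261, 312 and 761 reads in the first group and 502, 671 and 532 in the second. Both genes were thus far above the floor of 3 reads in every library, and their mean scaled counts over the 6 libraries were higher than those of 94.8% (Otog) and 67.1% (Otoa) of the 15970 genes tested.

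Otog had scaled counts of 1118, 1286 and 2932 after sound trauma. With MSC treatment its scaled counts were 1901, 2377 and 2089. Specimens 6 and 8 lay below every MSC treated library and specimen 10 above every one, so that the groups overlapped and the 3 MSC treated values fell in the gap within the sound trauma group. The exact Poisson 95% intervals were 1049 to 1191 in specimen 6, 1218 to 1357 in specimen 8 and 2833 to 3034 in specimen 10. In order from low to high the specimens were 6, 8, 13, 20, 18 and 10, and the intervals of neighbours did not overlap for any of the 5 neighbouring pairs. These intervals cover counting error only.

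Otoa had scaled counts of 302, 298 and 679.9 after sound trauma. With MSC treatment its scaled counts were 522, 685 and 516. Specimens 6 and 8 were again below every MSC treated library, while specimen 10 was above 2 of the 3. The order from low to high was 8, 6, 20, 13, 10 and 18. The intervals overlapped within 3 pairs of neighbours (8 and 6, 20 and 13, 10 and 18), so that Otoa stood at 3 levels that counting error did not resolve further. In counts per library total (CPM), 2 of these pairs were in the opposite order for Otoa, specimens 8 and 6 at 31.1 and 26.8 and specimens 20 and 13 at 54.4 and 50.6.

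**Figure D1:**
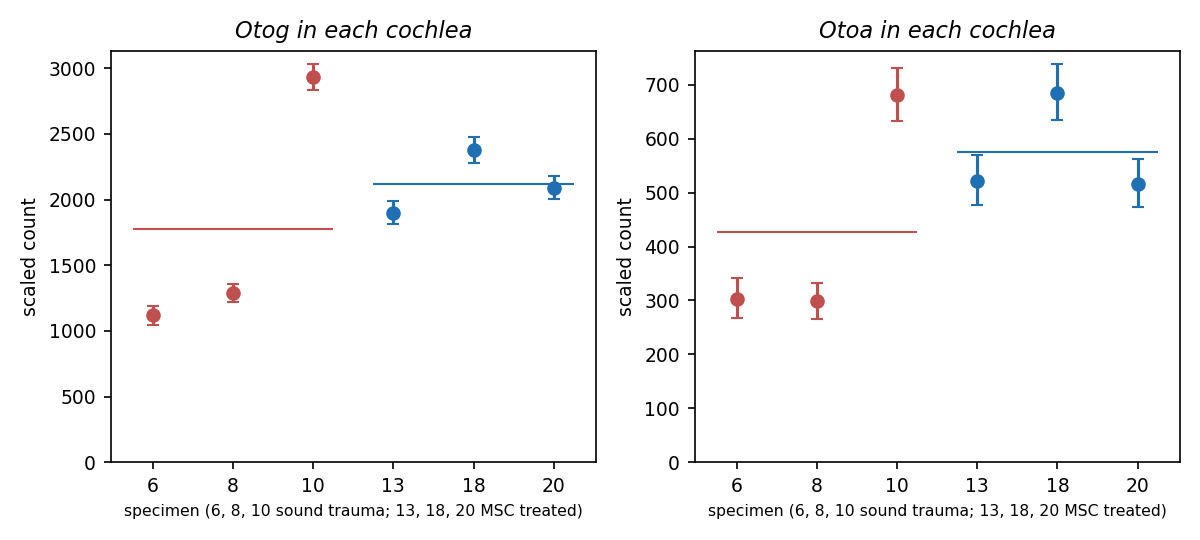
Scaled counts (y axis, from 0) of Otog (left) and Otoa (right) in each specimen (x axis), red for sound trauma and blue for MSC treated, with exact Poisson 95% intervals as bars and the group means as lines. Specimens 6 and 8 are low for both genes, at 1118 and 1286 for Otog and 302 and 298 for Otoa, and specimen 10 is the highest sound trauma library in both panels.

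The 2 genes can be compared in level only per length. With the transcript lengths above, Otog had 177 scaled counts per kilobase after sound trauma and 211 with MSC treatment, and Otoa had 113 and 152, means of n = 3. The authors' mean FPKM, in which length is already divided out, was 17.6 and 21.8 for Otog and 9.88 and 13.9 for Otoa in the same order. On both scales Otog was the more abundant transcript of the pair.

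The study's up-regulated list was made from these same libraries and chose both genes, so the difference between the groups is given as a description without a test. Otog had 1779 ± 1002 scaled counts after sound trauma and 2122 ± 239 with MSC treatment (SD, n = 3 each), a ratio of means of 1.19. Its log2 difference, MSC treated minus sound trauma, was 0.39 with a standard error of 0.36 on the log2(scaled count + 1) scale in limma. For Otoa the values were 427 ± 219 and 574 ± 96.1 (SD, n = 3 each), a ratio of means of 1.35, and the log2 difference was 0.53 with a standard error of 0.34. For both genes the distance between the group means was smaller than the SD of the sound trauma group. Among the 15970 genes tested the median log2 difference was 0.0014, 50.2% had a higher value in MSC treated animals, 678 (4.25%) had all MSC treated libraries above all sound trauma libraries and 466 (2.92%) all below them, patterns that neither Otog nor Otoa showed. In RNA from a whole cochlea, fewer cells that express a gene and less RNA per cell cannot be told apart.

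The size of these differences moved with each sound trauma library left out. Without specimen 10 the log2 difference of Otog was 0.82 with a standard error of 0.15 and that of Otoa 0.92 with a standard error of 0.17. Without specimen 6 they were 0.12 and 0.34, and without specimen 8 they were 0.22 and 0.33. Leaving out an MSC treated library gave 0.30 to 0.46 for Otog and 0.39 to 0.60 for Otoa. Set against the MSC treated mean on the log2 scale, Otog was lower by 0.92 in specimen 6 and by 0.72 in specimen 8 and was higher by 0.47 in specimen 10. Otoa was lower by 0.91 and 0.93 in specimens 6 and 8 and higher by 0.26 in specimen 10. The fitted values from edgeR and DESeq2, which compare mean counts, were 0.25 and 0.25 for Otog and 0.42 and 0.42 for Otoa. In none of these 14 alternative fits did either gene have a negative difference.

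**Figure D2:**
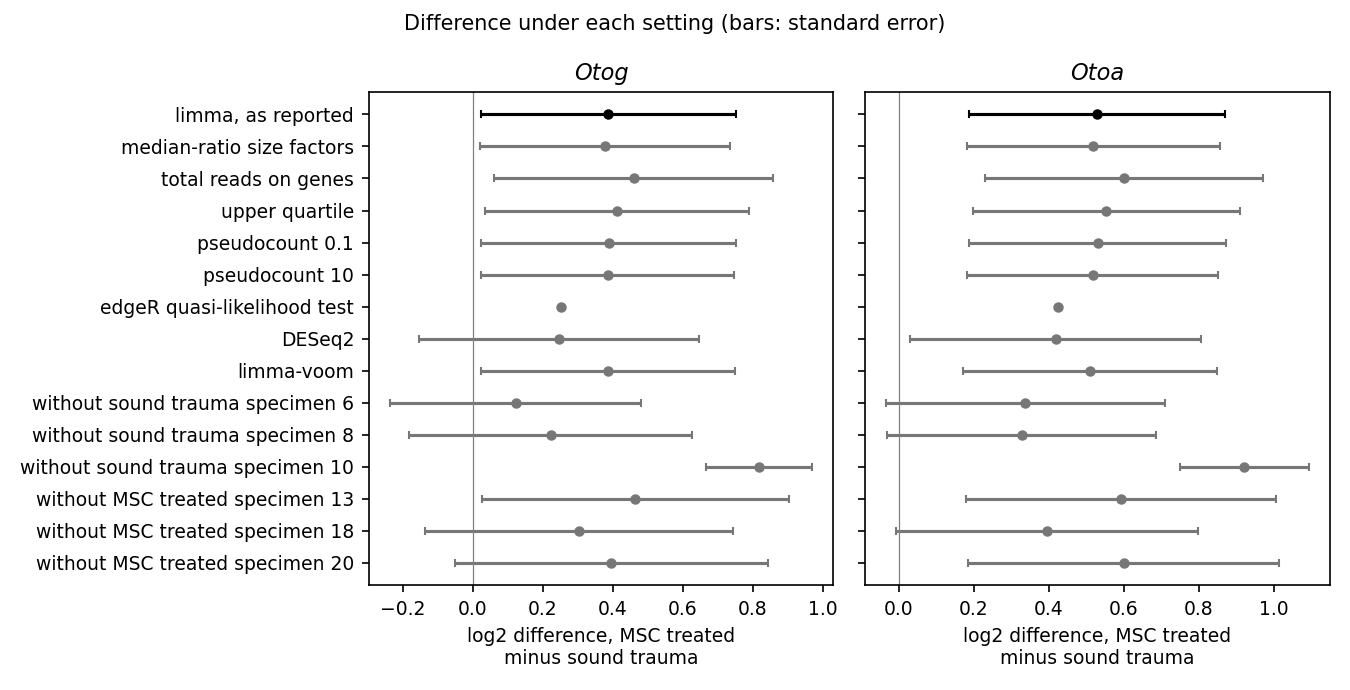
Log2 difference, MSC treated minus sound trauma (x axis), of Otog (left) and Otoa (right) in the reported limma fit and 14 alternatives (rows); bars are standard errors, which edgeR does not give. The values run from 0.12 to 0.82 for Otog and from 0.33 to 0.92 for Otoa, with the highest in both panels where sound trauma specimen 10 is left out.

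Within groups the spread was unequal. On the log2 scale the SD of Otog was 0.75 after sound trauma and 0.16 with MSC treatment, and that of Otoa was 0.68 and 0.23. Over the tested genes the median SD was 0.33 and 0.19 in the same order, and 77.9% of genes had the larger SD in sound trauma. In sound trauma, Otog varied more than 84.3% and Otoa more than 81.4% of the tested genes. In MSC treated animals the corresponding shares were 42.7% and 59.2%, close to the middle. The highest sound trauma value was 2.62 times the lowest for Otog and 2.28 times for Otoa, against 1.25 and 1.33 times among MSC treated libraries.

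Otog and Otoa moved together across the 6 libraries. The ratio of Otog to Otoa reads was 3.70, 4.31 and 4.31 after sound trauma and 3.65, 3.47 and 4.05 with MSC treatment. It spanned 1.24 times from lowest to highest, where Otog alone spanned 2.62 times and Otoa 2.30 times. The group means of the ratio were 4.11 ± 0.35 and 3.72 ± 0.30 (SD, n = 3 each), a difference slightly larger than the SD of either group. The likeness of 2 genes was measured as the root mean square difference between their log2 profiles, each centred on its own mean over the 6 libraries, so that 0 means the same profile. This difference was 0.12 between Otog and Otoa, while the median over the other 15969 tested genes was 0.54 for either of them. Over the named genes of the up-regulated list, from which both were taken, the median was 0.35 for either of them.

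Of the 3527 other tested genes with a symbol, the 5 closest to Otog were Siglec1 (0.118), Otoa (0.121), Ptprq (0.125), Kif19a (0.128) and Otof (0.131). Siglec1 encodes a lectin of tissue macrophages, and Kif19a a kinesin of motile cilia. Ptprq encodes a phosphatase of the hair bundle, and Otof encodes otoferlin, the calcium sensor of transmitter release in inner hair cells. The 5 closest to Otoa were Otof (0.069), Nox3 (0.102), Wnt2b (0.110), Kcnq1 (0.115) and Ptprq (0.116), with Otog in place 6. Nox3 encodes an NADPH oxidase needed to form otoconia, Kcnq1 a potassium channel of the cells that secrete endolymph, and Wnt2b a Wnt ligand. All of these genes are in the study's up-regulated list, and only listed genes have symbols in the files. Without regard to symbols, 12 tested genes were closer to Otog than Otoa was, and 19 were closer to Otoa than Otog was.

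Hair cell genes with a symbol were 6 of a list of 25. Otof had 236, 234 and 604 scaled counts after sound trauma and 441, 559 and 403 with MSC treatment. The ratio of Otoa to Otof reads stayed between 1.13 and 1.28, a span of 1.14 times. Ptprq had 96.2, 115 and 269.8 against 212, 244 and 197 scaled counts, and the ratio of Otog to Ptprq reads stayed between 8.97 and 11.6. Pou4f3, a transcription factor that hair cells need to survive, had 26.7, 22.9 and 50.0 against 45.7, 43.9 and 53.4 scaled counts, from 23 to 56 reads. These 3 genes shared with Otog and Otoa the low values of specimens 6 and 8, below each of the other 4 libraries. That pattern was found in 17.4% of all tested genes and in 68.6% of the tested up-listed genes, to which all 3 belong.

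The other 3 hair cell genes did not follow the pair. Lhfpl5, a part of the mechanotransduction complex, had 27.8, 15.3 and 19.7 scaled counts after sound trauma and 27.0, 34.7 and 32.0 with MSC treatment. Whrn encodes the stereocilia scaffold whirlin and had 869, 864 and 436 against 400.0, 699.6 and 447 scaled counts, so that specimens 6 and 8 were the highest. Ush1g, another scaffold of the hair bundle, was at 9 to 24 reads. Their root mean square differences from Otoa were 0.49, 0.88 and 0.82.

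Of the genes of inner ear extracellular matrix fixed for this comparison, 4 of 21 have a symbol, which are Otog, Otoa, Epyc and Emilin2. Tecta, Tectb, Ceacam16, Otogl and Strc, the other gel and attachment proteins of the list, were not analysed here by name. Epyc encodes epiphycan, a proteoglycan, and had 404, 271 and 719 scaled counts after sound trauma against 583, 621 and 708 with MSC treatment. Emilin2, which encodes a protein of the basilar membrane, had 689.6, 801 and 1242 against 1145, 938 and 1087. Both were lowest in specimens 6 and 8 and highest in specimen 10, like Otog. Their root mean square differences from Otog were 0.27 and 0.26.

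**Figure D3:**
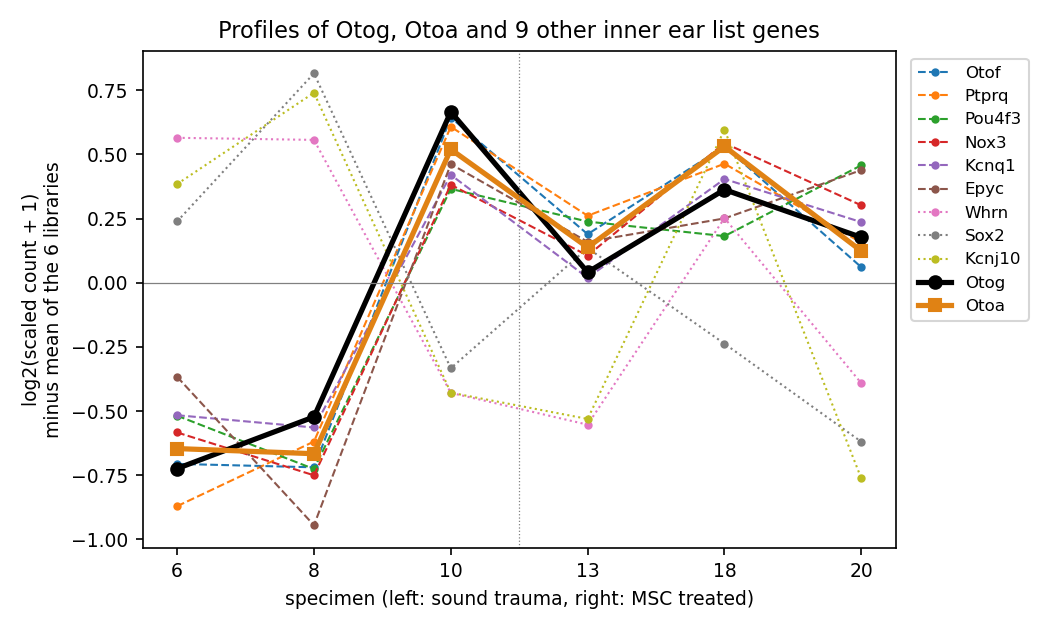
Log2(scaled count + 1) minus each gene's mean over the 6 libraries (y axis) by specimen (x axis), for Otog (black), Otoa (orange), 6 inner ear genes picked after their values were seen because they ran with the pair (dashed) and 3 picked because they did not (Whrn, Sox2 and Kcnj10, dotted); lines join the values of 1 gene and carry no order in time. Otog, Otoa and the dashed genes are below their mean in specimens 6 and 8 and above it in specimen 10, where Otog is at 0.67 and Otoa at 0.52, and the dotted genes lie on the opposite side of their mean in these 3 specimens.

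Among genes of nonsensory epithelium, 11 of 18 have a symbol and 10 were tested. Specimens 6 and 8 were both below the other 4 libraries for 4 of the 11, all 4 among the 7 on the up-regulated list. The same pattern was found in 17.4% of all tested genes and in 68.6% of the tested up-listed genes. Nox3 had 176, 157 and 345 scaled counts after sound trauma and 285, 386 and 326 with MSC treatment. Tbx2, a transcription factor of the otic epithelium, had 479.8, 448 and 961 against 701, 881 and 869.8. Lgr5, a marker of supporting cells, had 82.3, 141 and 166 against 216, 172 and 192, and its root mean square difference from Otog was 0.35. Tbx3, Emx2 and Sox10, also up-listed transcription factors, were farther from Otog, at 0.55, 0.56 and 0.42, and Emx2 had 48.7, 18.2 and 40.2 against 46.8, 65.4 and 43.7 scaled counts. Fgfr3, Prox1 and Sox2, which act in supporting cells and also in the brain, had their highest value in specimen 8, with Sox2 at 124, 185 and 83.1 against 115, 88.9 and 67.9. In the list of stria vascularis and endolymph, 5 of 16 have a symbol. Kcnq1 and Kcne1, which form the channel that releases potassium into endolymph, were lowest in specimens 6 and 8, with Kcne1 at 121, 93.7 and 331 against 262, 282 and 237. Kcnj10, which glia of the brain also express, had 1633, 2090 and 929 against 865, 1891 and 737 scaled counts, and its root mean square difference from Otog was 0.94.

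In limma with Benjamini-Hochberg adjustment over the 15970 genes, 0 genes (0%) had an adjusted p under 0.05, and edgeR, DESeq2 and limma-voom also gave 0. Before adjustment limma had 269 higher (1.68%) and 107 lower genes (0.67%) at p under 0.05. Of the 2 matrix genes other than the pair, 6 hair cell, 10 nonsensory and 5 stria genes tested, 17 in all had a higher and 6 a lower value in MSC treated animals, and 0 passed. Before adjustment 2 did, Met (log2 difference 0.60, adjusted p = 0.954 in limma) and Trpm1 (1.17, adjusted p = 0.954 in limma), both higher and both of the stria list. The 17 higher genes were all on the study's up-regulated list and the 6 lower genes all on its down-regulated list. This split thus repeats the study's choice from the same libraries. Over all tested genes 50.2% had a higher value in MSC treated animals. The median log2 differences of the 4 lists were 0.41, 0.55, 0.42 and 0.60, and their sign depends on the same choice. The matrix median was 0.21 without specimen 8 and 0.72 without specimen 10, and the hair cell median was 0.30 without specimen 6 and 0.33 without specimen 8. Without specimen 8 the nonsensory median was 0.20 and the stria median 0.37. The remaining 11 named genes of the study's response to sound list all had higher values in MSC treated animals, with a median of 0.38, but the study chose them on these animals. The same choice applies to every gene with a symbol.

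**Figure D4:**
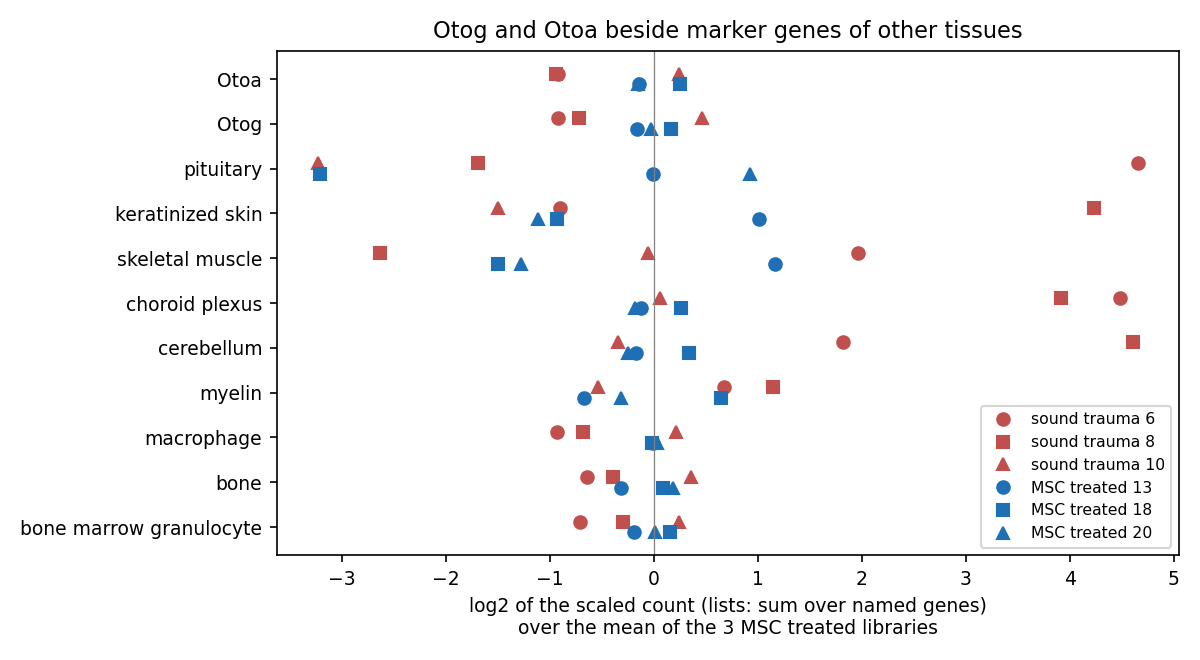
Log2 of the scaled count over the mean of the 3 MSC treated libraries (x axis) for Otog, Otoa and the summed named genes of 9 marker lists of other tissues (rows); red symbols are sound trauma and blue symbols MSC treated libraries, by specimen. Specimens 6 and 8 are low for Otog, Otoa, macrophage, bone and marrow genes and high for choroid plexus and cerebellum genes.

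Markers of other tissues also differed between libraries with low and high Otog and Otoa. For the 17 named cerebellum genes the summed scaled counts were 4607, 31767 and 1023 after sound trauma and between 1099 and 1647 in MSC treated libraries. The 8 choroid plexus genes summed to 8405, 5660 and 392 against 332 to 451, and the 8 pituitary genes to 297398, 3644 and 1256 against 1276 to 22355. The 20 skeletal muscle genes summed to 1098135, 45612 and 270895 against 99641 to 631278. Keratinized skin genes (12) summed to 73.0, 2560 and 48.2 against 63.1 to 274, and myelin genes (6) to 23329, 32471 and 10072 against 9187 to 22935. The 2 libraries in which Otog and Otoa were low thus held the most RNA of the named cerebellum and choroid plexus genes. All 17 and all 8 of these genes are on the study's down-regulated list, while Otog and Otoa came from its up-regulated list. Both lists were made from these libraries, so opposite directions were part of the choice. For myelin, MSC treated specimen 18, with the highest Otoa value, was at 22935 and close to specimen 6, whereas muscle RNA was most abundant in specimen 6 and least abundant in specimen 8. Defining markers were not all absent elsewhere, with genes at 0 reads in at least 1 library for 7 of the 12 skin and 2 of the 8 pituitary genes and for 0 genes of the other lists. The part of this RNA in the levels of Otog and Otoa was not tested.

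Low values in specimens 6 and 8 were also found outside the inner ear genes. The named marrow, bone and macrophage genes given here were all on the study's up-regulated list. The 6 named marrow granulocyte genes summed to 12198, 16244 and 23451 after sound trauma and to 17383 to 22194 in MSC treated libraries. The 4 bone genes summed to 55558, 66030 and 110791 against 69478 to 98825, and the 6 macrophage genes to 1953, 2330 and 4310 against 3679 to 3794. All 6 macrophage genes, all 4 bone genes and 4 of the 6 marrow genes were lower in specimens 6 and 8 than in the other 4 libraries, as were 2784 (17.4%) of all tested genes and 773 (68.6%) of the 1127 tested genes of the up-regulated list. The ratio of Otog reads to those of Mpo, a granulocyte enzyme, was between 0.160 and 0.238, a span of 1.49 times, and to those of Mbp, a myelin protein, it spanned 6.76 times. The ratio to the macrophage gene Siglec1 spanned 1.26 times and that to Ptprq 1.30 times. Among inner ear genes the ratio of Otog to Emilin2, Epyc and Kcne1 spanned 1.58, 1.72 and 1.89 times, more than that to Mpo. That to Pou4f3 spanned slightly more than that to Mpo. Those to Otof, Tbx2, Kcnq1 and Nox3 spanned less, at 1.29, 1.31, 1.37 and 1.38 times. The ratio of Otoa to Otof, Kcnq1, Nox3, Ptprq and Tbx2 spanned 1.14, 1.19, 1.25, 1.28 and 1.31 times. To Epyc, Siglec1 and Mpo it spanned 1.51, 1.52 and 1.67 times. To Kcne1, Pou4f3 and Emilin2 the ratio of Otoa spanned more than to Siglec1.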

How the data were processed

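RNA from the left cochlea of 3 sound trauma and 3 MSC treated mice was sequenced by the authors (NuGen Universal Plus, NovaSeq) and aligned to the C57BL/6NJ mouse genome. Groups were taken from the labels. The deposited scaled counts are read counts that the authors multiplied by 1 factor per library, and this signal gave whole reads within 1e-06 for all values. The deposited lists of up- and down-regulated genes pair 3716 identifiers with symbols and hold group means in FPKM made by the authors. Their fold change and FDR columns, which hold the authors' comparison (NOISeq), were not used. Libraries held 9170390 to 11030863 reads on genes.

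Log2(scaled count + 1) was tested with limma 3.58.1 (trend) on the 15970 genes that passed the edgeR filter on low counts, with Benjamini-Hochberg adjustment. Recovered reads were also fitted with edgeR 4.0.16 and DESeq2 1.42.0. Other alternatives were limma-voom, 3 scalings, 2 filters, 2 pseudocounts and leaving out each library. Intervals are exact Poisson 95%, converted to the scale of each library, and cover counting error only. P-values test the group difference against the spread between these libraries, which limma moderates across genes. Lengths and positions came from GENCODE M21 (GRCm38), and the sequences before the starts from RefSeq (GRCm38.p6). Named genes were the 5 genes with symbols closest to Otog and to Otoa and the members of the gene lists. Both genes, and the 14 lists, were chosen with earlier results of these data known. The method was tested on simulated data.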

Additional observations from a re-analysis of the deposited data

How the results depend on the processing

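The log2 differences of Otog and Otoa were positive in all 14 alternatives compared, from 0.12 to 0.82 for Otog and from 0.33 to 0.92 for Otoa, and the medians of the matrix and hair cell lists were positive in all 8 of theirs, from 0.21 to 0.72 and from 0.30 to 0.74. When 1 library was left out, the count of genes with an adjusted p under 0.05 in limma ranged from 0 to 1, the 1 gene appearing without sound trauma specimen 10. The count with an unadjusted p under 0.05 was 376 and ranged from 171 (without MSC treated specimen 20) to 2478 (without sound trauma specimen 10), and it was 233 without sound trauma specimen 8 and 184 without MSC treated specimen 18. It was 726 with every gene of at least 1 read and 799 in DESeq2. The cause was not tested. No paired analysis was possible because the specimen numbers of the groups (6, 8 and 10 against 13, 18 and 20) share no number. With 3 libraries per group, 1 library can move a group difference as far as given here.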

Other observations

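The lists of other tissues differed in their median log2 difference, MSC treated minus sound trauma. Marrow granulocyte, bone and macrophage genes, of which 6, 4 and 6 were tested, had medians of 0.28, 0.34 and 0.52. Skeletal muscle (20 tested), pituitary (5), myelin (5), keratinized skin (4), choroid plexus (7) and cerebellum (13) had medians of -0.21, -0.61, -0.82, -0.88, -1.04 and -1.94. Leaving out each library in turn, an alternative chosen after seeing the data, moved all of these medians by over 1.5 times. Without sound trauma specimen 6 the marrow, bone and macrophage medians were 0.07, 0.11 and 0.24, and without specimen 10 they were 0.50, 0.65 and 0.83. The cerebellum median was -0.61 without specimen 8 and -3.33 without specimen 10, and the choroid plexus median was -1.74 without specimen 10. The myelin median was -0.44 without specimen 8, -0.46 without specimen 13, -1.24 without specimen 18 and -1.32 without specimen 10. The muscle, skin and pituitary medians did not keep their sign, with ranges of -1.42 to 0.76, -1.94 to 1.08 and -2.49 to 1.54. Muscle was positive without specimen 6, 18 or 20, skin without specimen 8 and pituitary without specimen 6 or 18. In limma 0 genes of these lists had an adjusted p under 0.05, where before adjustment 1 marrow gene was higher and 3 choroid plexus genes and 1 cerebellum gene were lower at p under 0.05, against 1.68% higher and 0.67% lower of all tested genes. The study named these genes from the same libraries, so their directions are not independent evidence.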
